A study of Homo sapiens with 3 samples.

Results

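The genes of cholesterol and fatty acid synthesis were followed in SKBR3 cells given estradiol, the peptide ERα17p or ethanol. The set comprised 36 genes, namely the regulators, the enzymes of both pathways, a sterol carrier and 3 targets of the liver X receptors, and its members were the probe sets with 1 of these names as their single gene symbol. On the arrays 33 of the 36 were measured, by 79 probe sets, out of 19775 genes in all. CYP51A1 and FADS1 were read only by probe sets with several symbols and FDFT1 was not named in the annotation used, so these 3 have no value. SKBR3 is an ERBB2-amplified breast cancer cell line from human tissue, known to lack oestrogen receptor α. The 3 groups were 1 µM estradiol, 1 µM ERα17p (a synthetic peptide taken from the oestrogen receptor α sequence) and 0.1% ethanol as vehicle, each for 3 h after 4 h in charcoal-stripped serum, from which steroids and other lipophilic molecules have largely been removed. The labels do not name the solvent of the peptide. Each group had 1 array, so the differences below carry neither a replicate error nor a test. "Lower" and "higher" stand for a difference that reaches 1.5-fold (0.585 log2 units), and other differences are given as values. Values are log2 distances from a baseline that was subtracted from each probe set, so that the arrays of a gene can be compared with each other while its level of expression cannot be read.

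Cells make cholesterol from acetyl-CoA through mevalonate, squalene and lanosterol, and fatty acids from the same acetyl-CoA through malonyl-CoA. Sterol regulatory element-binding proteins (SREBPs), encoded by SREBF1 and SREBF2, switch on the genes of both pathways. SCAP escorts them to the Golgi for activation when sterols are scarce, and the INSIG proteins hold SCAP back when sterols are plentiful. SREBP2 mainly serves cholesterol synthesis and SREBP1c fatty acid synthesis. Liver X receptors answer to oxysterols and switch on sterol export. Tumour cells of the ERBB2-amplified type are known for high fatty acid synthase activity.

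SREBPs bind a sterol regulatory element next to sites of NF-Y, which recognises CCAAT. The 200 bases before the transcription start are shown for the 4 genes with the widest differences between estradiol and vehicle (HMGCS1, INSIG1, STARD4 and MSMO1). For contrast, they are also shown for SREBF2, whose gene value hardly differed between estradiol and vehicle. Sequences are RefSeq's on GRCh38.p14, written 5′ to 3′ along the gene, and capitals mark matches to the motifs searched. HMGCS1 lies on the minus strand (chr5:43313413-43313612, the first of 2 listed starts), INSIG1 on the plus strand (chr7:155297678-155297877), STARD4 on the minus strand (chr5:111512536-111512735), MSMO1 on the plus strand (chr4:165327469-165327668) and SREBF2 on the plus strand (chr22:41832905-41833104).
HMGCS1: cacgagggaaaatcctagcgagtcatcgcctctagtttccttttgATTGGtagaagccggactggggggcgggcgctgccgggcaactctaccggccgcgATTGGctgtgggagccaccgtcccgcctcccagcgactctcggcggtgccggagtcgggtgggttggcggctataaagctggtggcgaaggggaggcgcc
INSIG1: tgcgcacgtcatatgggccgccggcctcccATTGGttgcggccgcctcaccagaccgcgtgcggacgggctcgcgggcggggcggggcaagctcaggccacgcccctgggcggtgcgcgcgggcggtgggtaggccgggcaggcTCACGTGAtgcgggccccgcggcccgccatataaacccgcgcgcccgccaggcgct
STARD4: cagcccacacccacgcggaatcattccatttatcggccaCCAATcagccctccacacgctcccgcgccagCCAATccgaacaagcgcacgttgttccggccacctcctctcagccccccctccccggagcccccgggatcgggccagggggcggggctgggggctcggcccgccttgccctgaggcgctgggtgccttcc
MSMO1: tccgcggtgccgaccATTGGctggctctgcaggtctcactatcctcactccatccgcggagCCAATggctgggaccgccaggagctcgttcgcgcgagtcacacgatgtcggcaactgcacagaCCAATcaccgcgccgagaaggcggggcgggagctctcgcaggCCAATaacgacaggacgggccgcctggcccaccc
SREBF2: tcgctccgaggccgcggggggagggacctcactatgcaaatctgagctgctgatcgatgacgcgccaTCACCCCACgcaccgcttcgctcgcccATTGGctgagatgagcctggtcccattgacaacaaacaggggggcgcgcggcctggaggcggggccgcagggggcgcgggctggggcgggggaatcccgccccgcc
The letters searched on both strands were TCACNCCAC, the form of the classical sterol regulatory element, CACNCCAC, which lies inside it, TCACGTGA and CACGTG, an E-box inside the other, and CCAAT. Where a motif lies on the other strand, its reverse complement is in capitals. HMGCS1 held CCAAT with its first base 155 and 100 bases before the start, read on the other strand. STARD4 held it at 161 and 130, and MSMO1 at 185, 139, 76 and 34. INSIG1 held CCAAT at 170 and TCACGTGA at 56. SREBF2 alone of the members with a listed promoter held TCACNCCAC, at 133, beside CCAAT at 106. A promoter was listed for 29 of the 33 measured members, with all listed starts searched, and 21 of the 29 (72.4%) held CCAAT, against 8923 of 27305 genes (32.7%). LPIN1 had no CCAAT in any of its windows. TCACNCCAC was held by 1 member (3.45%, against 0.894% of genes), CACNCCAC by 4 (13.8%, against 4.82%), TCACGTGA by 1 (3.45%, against 0.971%) and CACGTG by 4 (13.8%, against 6.74%). All these shares count matches in the 200 bases before a start. A match describes letters in this window and not binding.

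Every difference from vehicle rests on a single array, and that array had the widest spread. The standard deviation over genes was 0.10 with estradiol, 0.11 with ERα17p and 0.27 with vehicle. A list of 20 measured NF-kB and cytokine genes had medians of -0.06, 0.10 and 1.92 in that order, and with vehicle 16 of them exceeded the baseline by at least 1.5-fold. The 3′ minus 5′ difference of ACTB was 0.02 with estradiol, -0.04 with ERα17p and 0.30 with vehicle. That of GAPDH was nearly equal on the arrays, at 0.01, -0.03 and 0.05 in that order. What part these shifts have in the differences below was not tested. Median differences of luminal, leukocyte, fibroblast, endothelial and adipocyte marker lists lay between -0.15 and 0.14 in all comparisons, with ADIPOQ alone past 1.5-fold (0.63, estradiol minus vehicle). Whether SKBR3's defining markers are expressed cannot be read from centred values.

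Estradiol was first compared with vehicle. HMGCS1, INSIG1, STARD4 and MSMO1, which serve sterol synthesis, its feedback or sterol transport, and the glycerolipid enzyme gene LPIN1 were lower with estradiol, with HMGCS1 in front at 2.07-fold, while the core fatty acid enzymes lay at nearly equal values. In all, 5 of 33 members (15.2%) were lower and 0 were higher. Over all 19775 genes, 2.93% were lower and 0.809% higher. The members' median difference was -0.03, against 0.03 for all genes, and 21 of 33 lay below 0 (63.6%, against 43.8% of all genes). Probe sets ending in _s_at or _x_at can take up several transcripts. Without them 12 of the 23 members left lay below 0 (52.2%, against 43.3% of all genes). Their median was then -0.01, against 0.03. With the baseline in place of vehicle 0 members were lower, against 0.0506% of all genes. With the 3 arrays quantile-normalized to each other 2 were, INSIG1 (-0.69) and HMGCS1 (-0.66), against 1.24% of all genes under that setting. That setting was applied to the centred values, which the authors' RMA had already normalised. It gave the 3 arrays the same spread, and so narrowed values with vehicle and widened those with estradiol and ERα17p.

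**Figure D1:**
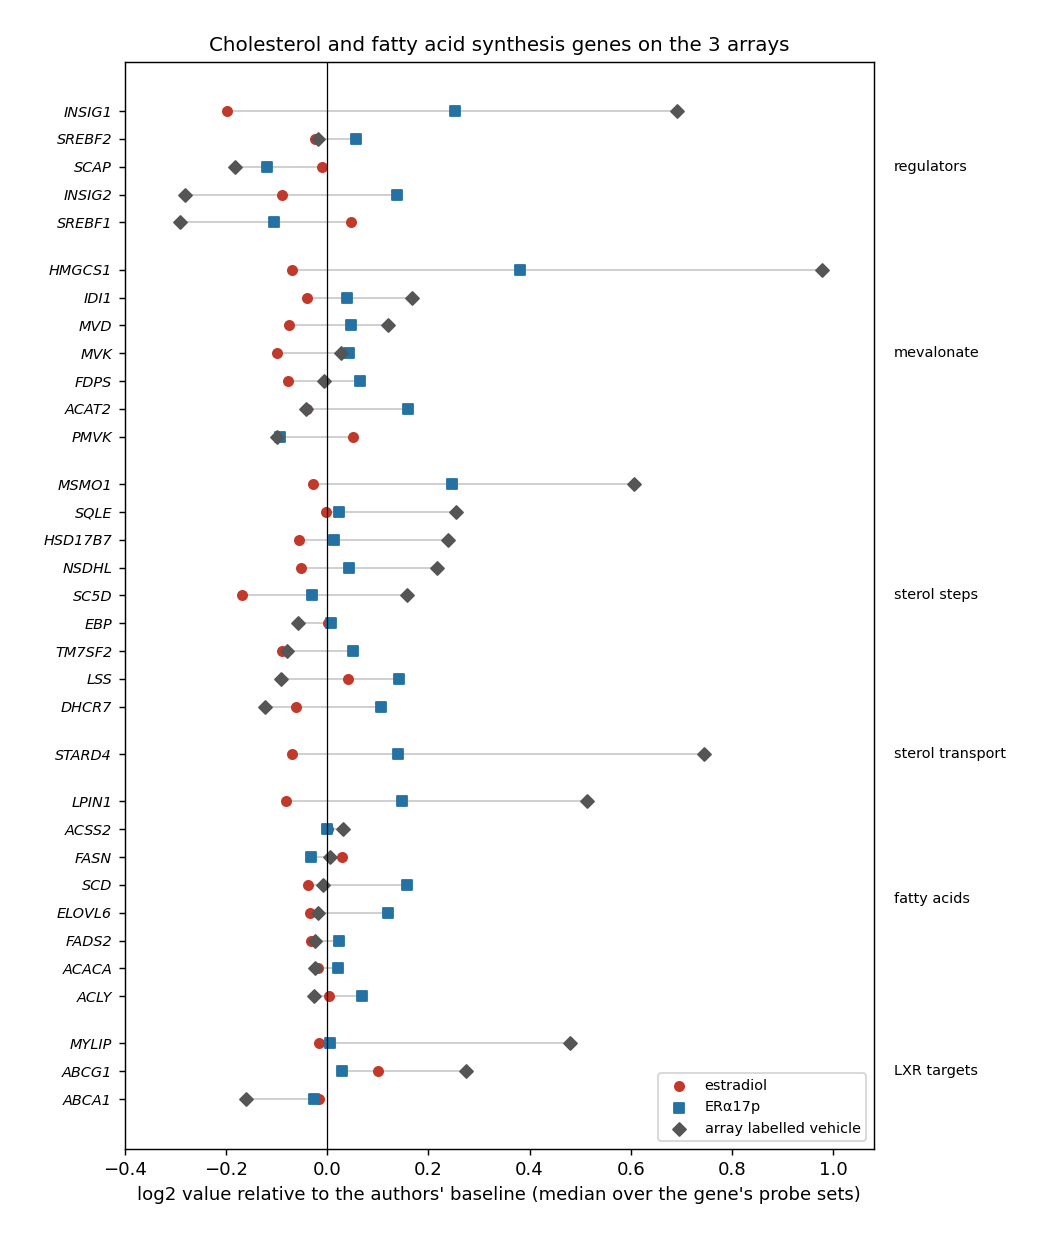
Value of each of the 33 measured genes on the 3 arrays (x axis, log2 distance from the authors' baseline, median over probe sets), grouped by role. Circles are estradiol, squares ERα17p and diamonds the array labelled vehicle. HMGCS1, STARD4, INSIG1, MSMO1, LPIN1 and MYLIP lie farthest right on the array labelled vehicle (0.48 to 0.98), while FASN, ACACA, ACLY, ACSS2 and FADS2 keep all 3 points close to 0.

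Among the regulators, INSIG1, itself a known SREBP target, had -0.20 with estradiol and 0.25 with ERα17p, against 0.69 with vehicle. It was lower with estradiol by -0.89 (1.85-fold), and its 3 probe sets gave -0.93, -0.89 and -0.65. Its paralogue INSIG2, read by 1 probe set, ran the other way against vehicle, with -0.09, 0.14 and -0.28 on the same arrays and a difference of 0.19. The pair differed in sign with estradiol as well as with ERα17p.

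SREBF1, which encodes SREBP1a and SREBP1c, had 0.05 with estradiol and -0.11 with ERα17p, against -0.29 with vehicle. Its difference of 0.34 with estradiol was the highest of the 33 members and did not reach 1.5-fold (0.46 and 0.22 by probe set). SREBF2 had -0.02, 0.06 and -0.02, a difference of -0.0057 with estradiol. Its 3 probe sets ran from -0.02 to 0.13 for estradiol against vehicle, and without the one ending in _s_at its value was 0.09. For ERα17p against vehicle they ran from -0.17 to 0.23. SCAP had -0.0094, -0.12 and -0.18, a difference of 0.17. Of the 5 regulators, 1 was lower and 0 higher, and INSIG1 stood at the low end of the group while SREBF1 stood at the high end.

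In the mevalonate pathway 1 of 7 genes was lower and 0 higher (median -0.13). HMGCS1, the cytosolic HMG-CoA synthase that makes HMG-CoA from acetoacetyl-CoA, had -0.07 with estradiol and 0.38 with ERα17p, against 0.98 with vehicle. It differed by -1.05 with estradiol, the 160th lowest of 19775 genes, and its probe sets were close to each other (-1.04 and -1.05). The other genes of the pathway lay nearer to 0. ACAT2, the thiolase one step before it, differed by 0.0024. MVK and PMVK, the kinases of mevalonate and phosphomevalonate, had -0.13 and 0.15. MVD, the decarboxylase, had -0.19, IDI1, the isopentenyl diphosphate isomerase, -0.21, and FDPS, the farnesyl diphosphate synthase, -0.07. The 4 probe sets of IDI1 ran from -0.45 to 0.08, so its value depends on which of them is read, and without those whose names end in _s_at or _x_at, which can take up several transcripts, it was 0.08.

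In the steps from squalene to cholesterol 1 of 9 genes was lower and 0 higher (median -0.26). MSMO1, the C-4 methylsterol oxidase, had -0.03 with estradiol and 0.25 with ERα17p, against 0.61 with vehicle, a difference of -0.63 (1.55-fold) from its single probe set. SQLE, the squalene epoxidase, differed by -0.26. Its 4 probe sets all lay below 0, from -0.70 to -0.12. The demethylation enzymes NSDHL and HSD17B7, which act with MSMO1, had -0.27 and -0.30, and the late desaturase SC5D had -0.33, the median of probe sets at -0.49 and -0.16, of which the first ends in _s_at or _x_at. The single probe set of HSD17B7 also ends in _s_at or _x_at. The remaining genes lay on the other side of 0 or at it. LSS, the lanosterol synthase, had 0.13, DHCR7, the last reductase, 0.06, the isomerase EBP 0.06 and the C-14 reductase TM7SF2 -0.01. The 3 probe sets of LSS ran from -0.10 to 0.27, and without the one ending in _s_at its value was -0.01.

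STARD4, a carrier of cholesterol between membranes, had -0.07 with estradiol and 0.14 with ERα17p, against 0.74 with vehicle. It was lower with estradiol by -0.81 (1.76-fold), again from a single probe set. Over the 17 genes of mevalonate, sterol steps and sterol transport the median difference was -0.19, and 12 lay below 0.

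In the fatty acid branch 1 of 8 genes was lower and 0 higher (median -0.01). LPIN1, a phosphatidate phosphatase on the way to triglycerides and phospholipids, differed by -0.59 (1.51-fold), just past the limit, and by -0.48 as the mean over its probe sets. It had -0.08 with estradiol and 0.15 with ERα17p, against 0.51 with vehicle, and its probe sets gave -0.68, -0.62 and -0.13. The other 7 were ACLY, the ATP citrate lyase, ACSS2, an acetyl-CoA synthetase, ACACA, the acetyl-CoA carboxylase, FASN, the fatty acid synthase, ELOVL6, an elongase, and the desaturases SCD and FADS2. Their differences all lay between -0.03 and 0.03, a range that held 12.3% of all genes. Single probe sets spread wider, from -0.12 to 0.21 over 17 probe sets, and those of FASN had opposite signs (-0.10 and 0.15).

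The liver X receptor targets differed in sign, and 0 of 3 were lower or higher. MYLIP, a ubiquitin ligase that removes lipoprotein receptors, had -0.02 with estradiol and 0.0059 with ERα17p, against 0.48 with vehicle. Its difference of -0.50 with estradiol came next after the 5 lower genes. Of its 6 probe sets 5 lay below 0, down to -0.74, and 1 lay at 0.37. Without probe sets ending in _s_at or _x_at, MYLIP differed by only -0.03, the median of discordant probe sets at -0.44 and 0.37. The sterol exporters ABCA1 and ABCG1 had 0.14 and -0.17, and without those probe sets 0.07 and 0.06. The difference in sign of their gene values thus rests on them, though the probe sets of ABCG1 then left gave -0.08 and 0.21.

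**Figure D2:**
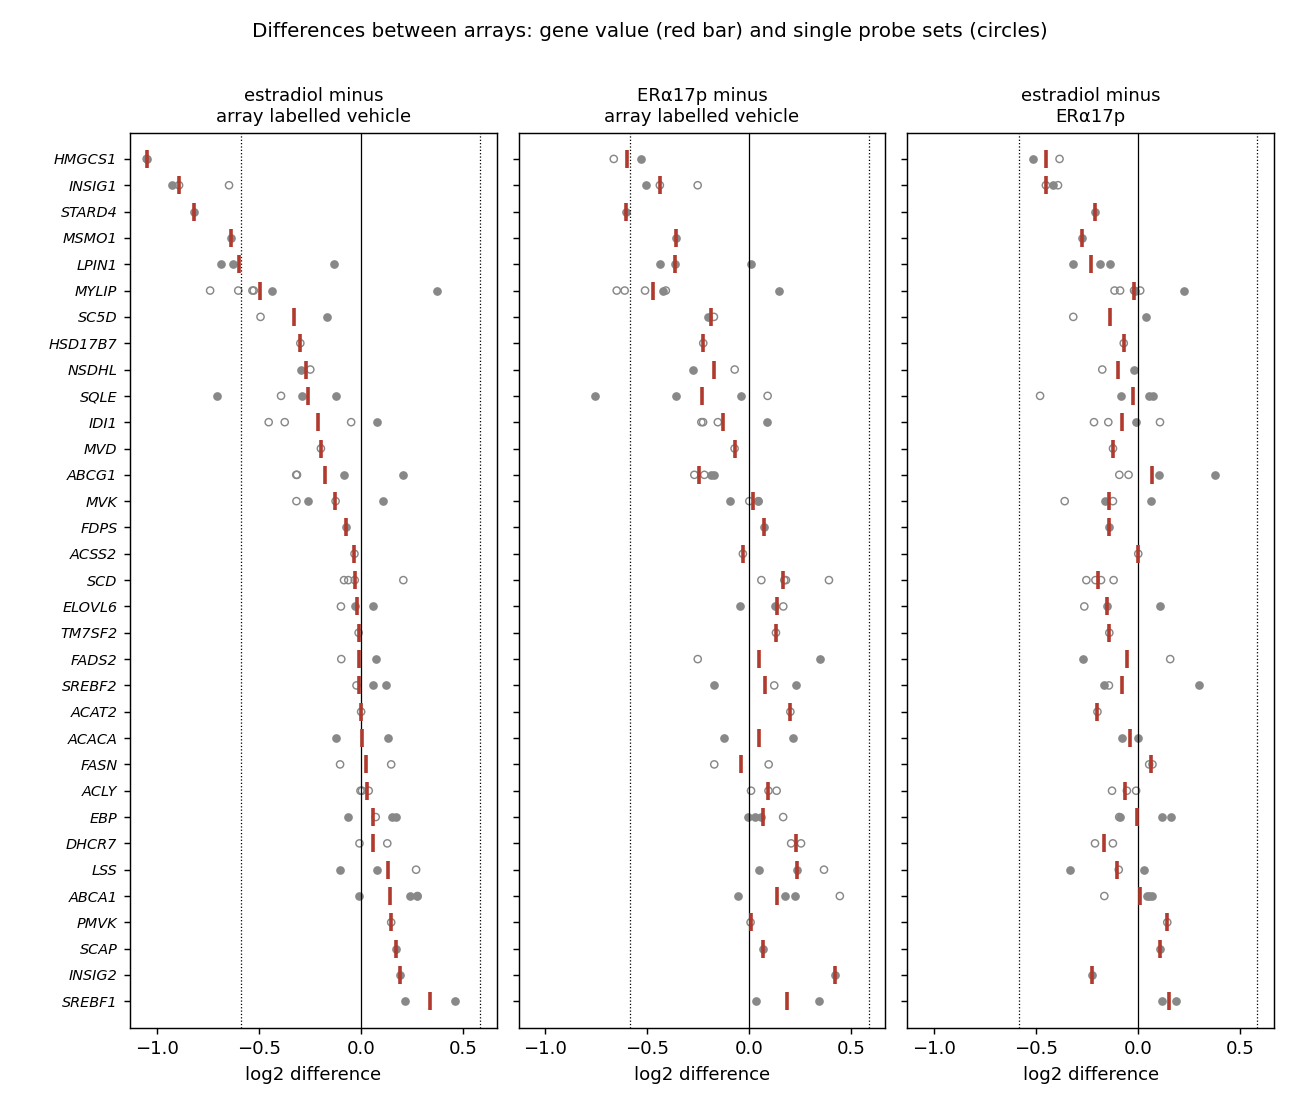
Log2 differences (x axis) of the 33 genes in the 3 comparisons. Red bars are gene values, filled circles probe sets that read 1 gene, open circles those ending in _s_at or _x_at, and dotted lines 1.5-fold. HMGCS1 at -1.05 leads the first panel, 2 gene values pass the limit with ERα17p and none does between both treatments.

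By probe set, 12 of 79 were lower with estradiol than with vehicle and 0 were higher, against 3.71% and 1.38% of 41091 probe sets. The 12 were the 3 of INSIG1, both of HMGCS1, 2 each of LPIN1 and MYLIP, and 1 each of STARD4, MSMO1 and SQLE. Probe sets of 1 gene often disagreed. Among the 22 members with at least 2 probe sets, all lay on the same side of 0 in 7 (31.8%), against 46.3% of 10523 genes.

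ERα17p against vehicle used the same array labelled vehicle, so it is not separate from the comparison above. Here 2 of 33 members (6.06%) were lower and 0 higher, against 2.14% and 0.582% of all genes. The 2 were HMGCS1, by -0.60 (1.51-fold), and STARD4, by -0.60 (1.52-fold), both just past the limit. With the baseline in place of vehicle both had the other sign (0.38 and 0.14), and with quantile normalization HMGCS1 had 0.14 and STARD4 -0.28. The probe sets of HMGCS1 gave -0.53 and -0.66. By probe set 5 of 79 were lower and 0 higher, against 2.76% and 0.886% of all. The members' median was 0.02, against 0.03 for all genes, and 15 of 33 lay below 0 (45.5%, against 41.9%).

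The other genes named above lay short of the limit with the peptide. MYLIP differed by -0.47, INSIG1 by -0.44, LPIN1 by -0.37 and MSMO1 by -0.36. With quantile normalization these were -0.32, -0.06, -0.15 and -0.03. SQLE had -0.23, with 1 of its probe sets at -0.76 and another at 0.09. On the other side INSIG2 had 0.42, the highest of the members and the 505th highest of all genes, followed by LSS (0.23), DHCR7 (0.23) and ACAT2 (0.20). The 7 fatty acid genes other than LPIN1 lay between -0.04 and 0.17, with SCD, the stearoyl-CoA desaturase, highest and above 0 in all 4 probe sets. Their 17 probe sets spread wider, from -0.25 to 0.39. Those of FADS2 (-0.25 and 0.35), FASN, ACACA and ELOVL6 lay on both sides of 0.

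The direct comparison of estradiol with ERα17p leaves out the array labelled vehicle. No member reached 1.5-fold in either direction, against 0.207% of all genes lower and 0.147% higher. With quantile normalization 2 members were lower, HMGCS1 (-0.80) and INSIG1 (-0.63), against 0.956% of all genes lower and 0.708% higher under that setting. Without quantile normalization, no probe set of a member reached 1.5-fold, against 0.29% lower and 0.314% higher of all probe sets. Small differences mostly had the same sign, with estradiol below the peptide. In all, 26 of 33 members lay below 0 (78.8%, against 53.9% of all genes), and the median was -0.10, against -0.01. This comprised 9 of 9 genes of the sterol steps, 6 of 7 of the mevalonate pathway, 6 of 8 of fatty acids, 3 of 5 regulators, the sterol carrier STARD4 and 1 of 3 liver X receptor targets. EBP, of the sterol steps, lay at only -0.0048. Without probe sets ending in _s_at or _x_at, SQLE (0.03), SC5D (0.04) and EBP (0.0078) lay above 0. LSS, MSMO1 and NSDHL stayed below it, and HSD17B7, TM7SF2 and DHCR7 had no probe set left.

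The widest differences below 0 with estradiol against ERα17p were those of INSIG1 (-0.45, the 133rd lowest of all genes) and HMGCS1 (-0.45, the 138th lowest). MSMO1 (-0.27), LPIN1 (-0.23), INSIG2 (-0.23) and STARD4 (-0.21) followed. The 3 probe sets of INSIG1 gave -0.45, -0.42 and -0.39, and those of HMGCS1 -0.51 and -0.38. All 5 of these probe sets lay on the same side of 0. On the other side stood SREBF1 (0.15), the phosphomevalonate kinase gene PMVK (0.14) and SCAP (0.11). By probe set the lean was weaker, with 53 of 79 below 0 (67.1%, against 54.6%). Without probe sets ending in _s_at or _x_at it was weaker still, with 14 of the 23 members left below 0 (60.9%, against 51.7%) and a median of -0.02.

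**Figure D3:**
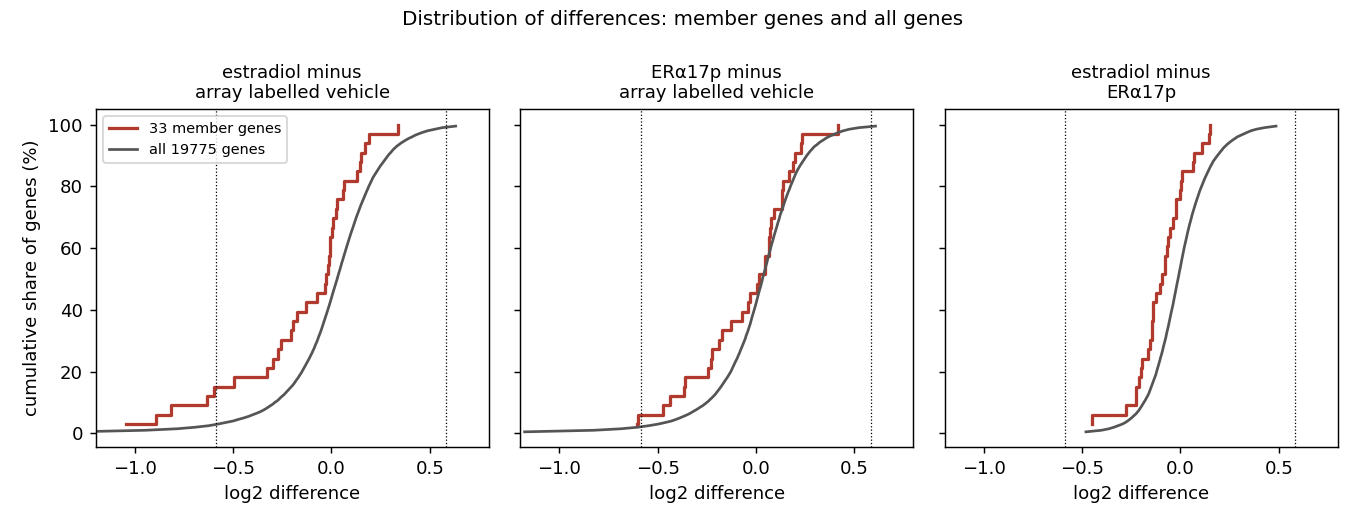
Cumulative share (y axis, %) of the 33 member genes (red steps) and of all 19775 genes (grey line) at or below each log2 difference (x axis), one panel per comparison, with dotted lines at 1.5-fold. The red steps run left of the grey line over most of both panels with estradiol, where the members' medians are -0.03 and -0.10, and cross it in the panel of ERα17p against vehicle.

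Against the baseline in place of vehicle, the members mostly lay on opposite sides with the 2 treatments, and all genes leaned the same way more weakly. The direct comparison above used the same 2 treated arrays, so these counts are not separate from it. On the estradiol array 8 of 33 lay above it (24.2%, against 46.1% of all genes) with a median of -0.03. On the ERα17p array 26 of 33 did (78.8%, against 53.7%) with a median of 0.04. On the array labelled vehicle 16 of 33 lay above it (48.5%, against 40.3%), of which 4 by at least 1.5-fold, namely HMGCS1, STARD4, INSIG1 and MSMO1 (12.1%, against 2.35%). No member lay 1.5-fold away from the baseline with estradiol (0.00506% of all genes above and 0.0506% below) or with ERα17p (0.0657% above and 0.00506% below).

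The most common order of the 3 arrays was vehicle above ERα17p above estradiol, found in 12 of 33 members (36.4%, against 19.5% of all genes). Among all 579 genes lower with estradiol than with vehicle, 81.2% had this order. A gene with it lies below 0 for estradiol against vehicle by definition, so this count is not separate from the one for that comparison. On the log2 scale the ERα17p array stood part of the way from the estradiol array to the array labelled vehicle. That share was 50.7% of the way for INSIG1, 43.3% for MSMO1, 42.9% for HMGCS1, 38.4% for LPIN1 and 25.9% for STARD4. MYLIP stood at 4.33%, so that both treated arrays were nearly equal for it. With quantile normalization the shares were 91.8% for INSIG1, 94.1% for MSMO1, 67.0% for LPIN1, 50.1% for STARD4 and 6.78% for MYLIP. HMGCS1 then stood at 121%, with the ERα17p array above the array labelled vehicle. Because that setting gives the 3 centred arrays the same spread, it draws in the array labelled vehicle and stretches the treated arrays by construction. The order was found in 11 of 33 members under that setting (33.3%, against 19.8% of all genes). Without quantile normalization, the median share over all 579 genes lower with estradiol than with vehicle was 15.4% (quartiles 3.30% and 28.7%). The share over all such genes was not computed with quantile normalization, so the shares under that setting have no background here.

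Other genes of lipid metabolism were then counted. Of 22 measured genes of sterol sensing, esterification and export, 0 were lower or higher in any comparison, and their medians were -0.04 for estradiol and -0.0027 for ERα17p against vehicle and -0.0047 for estradiol against ERα17p. Their differences with estradiol against vehicle ran from -0.31 for STARD5 to 0.56 for SOAT2, a cholesterol esterification enzyme. Of 26 measured genes of fatty acid elongation, activation and glycerolipid synthesis, 1 was lower with estradiol than with vehicle, the elongase gene ELOVL7. It had -0.14 with estradiol and 0.16 with ERα17p, against 0.59 with vehicle, a difference of -0.73 from 1 probe set. The list's medians were -0.06, -0.02 and -0.05 in the 3 comparisons.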

How the data were processed

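RNA of 3 SKBR3 samples (estradiol, ERα17p and ethanol vehicle) was hybridised to 1 Affymetrix whole-genome array each, and groups were taken from the labels. Per the submitters' processing notes, the authors made the values with RMA, which corrects background, normalises by quantiles and summarises probes; its version was not given. The authors' deposited values were taken to be log2, as RMA yields, since no label states a base. They are centred per probe set: in 3979 of 54675 probe sets (7.28%, and 4 of the members' 79) 2 of the 3 columns mirror each other around 0 to within 1e-06, as a median over a larger, even number of arrays gives. Such arrays were not used here. Signal over background is therefore unknown, and the precision is limited by having 3 arrays.

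Gene symbols came from the platform annotation and were brought up to GRCh38.p14 by Entrez gene ID (41037 of 41091 single-symbol probe sets matched, 0 symbols changed). Another 1801 had several symbols, 11721 were unnamed here and 62 were controls; all were left out. Gene values were medians over probe sets on each array, and comparisons were differences of gene values, with no test. Genes were counted at 1.5-fold. Values were computed with Python 3.11.15 and pandas 2.3.3, and the steps were checked on simulated arrays. Every member could be named, and other genes only at or past 1.5-fold, as a marker list's exception, or as a list's extreme. STARD5, SOAT2 and the letters searched in promoters were chosen after values or matches were seen. The members and lists were chosen with earlier results of these data known. Alternatives changed the probe sets used, their summary, the scaling, the baseline, the fold, the naming and the members counted.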

Additional observations from a re-analysis of the deposited data

How the results depend on the processing

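The 5 members lower with estradiol than with vehicle numbered 1 at 2-fold and 3 among the 22 members read by at least 2 probe sets. With the arrays quantile-normalized to each other they numbered 2 (1.24% of all genes). With the authors' baseline in place of the array labelled vehicle they numbered 0 (0.0506% of all genes). The mean over probe sets gave 4 (2.89% of all genes). The probe set of largest absolute difference gave 7, where SQLE and MYLIP joined and 5.83% of all genes were lower. At 2-fold, between 0.5% and 1% of all genes were lower in each comparison with vehicle. Quantile normalization was applied to the centred values and gave the 3 arrays the same spread. Among all genes it gave 245 lower and 160 higher for estradiol against vehicle, in place of 579 and 160. For ERα17p against vehicle it gave 123 and 132, in place of 424 and 115. For estradiol against ERα17p it gave 189 and 140, in place of 41 and 29. The 2 members lower with ERα17p numbered 1 of the 23 members left without probe sets ending in _s_at or _x_at (2.17% of all genes). They numbered 4 with the probe set of largest absolute difference (4.41% of all genes). They numbered 0 with quantile normalization (0.622%), 0 with the baseline (0.00506%), 0 at 2-fold and 1 among the 22 members read by at least 2 probe sets. No share over all genes with at least 2 probe sets was computed, so both counts among the 22 members have no background here. The median of all 33 members, 0.02 for ERα17p against vehicle, became -0.0070 with each array centred on its median and -0.056 as a mean. Estradiol against ERα17p, with 0 lower members, gave 2 with quantile normalization, HMGCS1 (-0.80) and INSIG1 (-0.63). HMGCS1 changed sign for ERα17p against vehicle, to 0.14 with quantile normalization and 0.38 with the baseline, and STARD4 to 0.14 with the baseline. LPIN1 had -0.48 with estradiol against vehicle as the mean over probe sets. Beyond the reference or scaling that each setting itself replaces, the cause was not tested. The settings with the median over the probe sets' differences and with members of at least 2 probe sets were chosen after seeing the data. No paired analysis was possible because each group had 1 array.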
